A study of Mus musculus with 8 samples.

Results

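The miR-297, miR-466, miR-467 and miR-669 families are rodent microRNAs (miRNAs) whose genes lie in dense repeated units within an intron of Sfmbt2, a Polycomb group gene. All entries of these families in the miRNA class were taken by name, every letter member and arm included, without use of their values, which gave 57 of the 730 entries of that class and of the 20558 small RNAs listed. The miR-297 family had 6 entries, miR-466 had 20, miR-467 had 10 and miR-669 had 21. Of the 57 members 30 were 3p arms, 24 were 5p arms and 3 carried no arm in their name.

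Small RNA had been sequenced from whole testes of 8 adult male C57Bl/6 mice, 4 on a standard diet (SD mice: M1N and M2N, TN1 and TN2) and 4 on a Western-like diet rich in fat and sugar (WD mice: M1W to M3W and M5W). The diet began at 4 weeks of age by the sample labels, and the males were mated at 4 months. The methods text gives a slightly earlier start. The comparison of WD with SD testes asks which small RNAs differ with the diet of the father. Between 2064562 and 3253798 reads were counted per mouse, so that 3 counts, the smallest level taken as measurable, corresponded to 0.922 to 1.45 CPM by library total alone. CPM is the count scaled to a common library size, and the levels given for members are also corrected for library composition by TMM factors. This limit covers counting error only. Markers of meiotic and haploid germ cells, miR-34c-5p, miR-34b-5p and miR-449a-5p, were present in every mouse at a summed 12000 to 16900 CPM. In whole tissue fewer cells of a type and less RNA per cell cannot be told apart. Among the SD mice, M1N and M2N stood apart from TN1 and TN2, and results are therefore given against each pair as well.

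A miRNA gene is transcribed as a hairpin, from which the enzymes Drosha and Dicer cut a short duplex. Either strand of the duplex can be retained in an Argonaute protein, and the strands are named 5p and 3p after the side of the hairpin they come from. The retained strand finds target mRNAs mainly through its seed, bases 2 to 8. Sfmbt2 is imprinted in the mouse, with expression from the paternal allele in early embryos and placenta, and the miRNAs of its intron are known from those tissues and from embryonic stem cells.

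By GENCODE M1, on the NCBIM37 assembly, Sfmbt2 lies on the forward strand at chr2:10292137-10516880. The annotation holds 79 precursors of the 4 families, of which 68 lie within Sfmbt2 and 11 lie elsewhere in the genome. The 68 precursors are all in intron 10 of the 23-exon transcript, an intron of 62.5 kb. They cover chr2:10388571-10439906, or 51.3 kb, with a median distance of 301 bases between the starts of neighbours. There are 29 precursors of miR-669, 22 of miR-466, 12 of miR-467 and 5 of miR-297, and the families alternate along much of the region. The name of the cluster did not hold for every member. For 49 members all annotated precursors were in Sfmbt2, and for 5 members (miR-297a-3p, miR-297a-5p, miR-466f-3p, miR-466f-5p and miR-466f) precursors were both in and outside it. The precursor of miR-466i-3p was on chromosome 13, and for miR-466q and miR-466m-3p none was found by name.

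Mature sequences were matched by name to RefSeq (GRCm38.p6) for 2 of the 57 members, and both are shown because their genes lie outside Sfmbt2 and because they display the CA repeats of the miR-466 family. Capitals mark the seed.
miR-466i-3p (22 bases, chr13:17747552-17747573, forward strand): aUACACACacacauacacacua
miR-466q (20 bases, chr3:28419988-28420007, forward strand): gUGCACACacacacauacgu
The CA dinucleotide occurs 7 times in miR-466i-3p and 6 times in miR-466q, and their seeds are not the same. Each was rare in testis, with 10 counts over the 8 mice, and neither was tested. Because 2 sequences were matched, the members were not grouped by seed.

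The 57 members together held 19470 counts over the 8 mice. Their share of the miRNA counts was 0.803% ± 0.0529 (SD, n = 4) for the standard diet and 0.916% ± 0.173 (SD, n = 4) for the Western-like diet. A single miRNA, miR-669a-3p, held 31.3% of the members' counts and stood at rank 68 of the miRNA class, and the 6 most abundant members held 64.1%. These 6 were, in order of mean CPM, miR-669a-3p, miR-467a-5p, miR-466b-3p, miR-669a-5p, miR-467e-5p and miR-467a-3p. Mature miRNAs are close to each other in length, so CPM was not divided by length. At the low end, 25 members had between 9 and 60 counts over all mice and did not pass the filter on low counts, which left 32 members to be tested, each with at least 83 counts. A count of 0 in at least 1 mouse was found for 13 members. Of the precursor entries in the table, 2 belonged to these families. The entry pre-mmu-mir-297a-2 had 9 to 27 counts per mouse and a log2 fold change, WD over SD, of -0.32 (unadjusted p = 0.346, edgeR), and pre-mmu-mir-466g had 11 counts and was not tested.

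Many members kept a nearly constant ratio to each other. Within a family and arm, 73 pairs of tested members could be formed, and for each pair the ratio of counts in every mouse was compared with the ratio of the totals by chi-square. In 18 pairs the chi-square per degree of freedom was under 0.2, where counting error alone gives about 1, whereas in 36 pairs it was 1 or more and reached 8.1. The limit of 0.2 was chosen after the values were seen. These 18 pairs joined 20 members into 8 sets, and 12 tested members stood outside them. The largest set was miR-466a-3p, miR-466b-3p, miR-466c-3p, miR-466e-3p and miR-466p-3p. The others were the 3 miR-297 3p arms, miR-467a-3p with miR-467d-3p, miR-467a-5p with miR-467b-5p, miR-669a-3p with miR-669o-3p, miR-669a-5p with miR-669p-5p, miR-669b-5p with miR-669m-5p, and miR-669c-5p with miR-669o-5p.

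In several sets the ratio lay near the ratio of annotated gene copies. The counts of miR-467a-5p were 9.79 times those of miR-467b-5p, with a range of 9.29 to 10.2 over the 8 mice, and RefSeq (GRCm38.p6) lists 10 copies of miR-467a and 1 of miR-467b. For miR-669a-3p and miR-669o-3p the ratio was 11.2, with a range of 10.6 to 11.9, beside 11 copies and 1. For miR-669m-5p and miR-669b-5p it was 2.06, beside 2 copies and 1. For miR-669a-5p and miR-669p-5p it was 6.05, beside a ratio of copies of 6.0. In GENCODE M1 the number of copies is 8 for miR-467a and 12 for miR-669a, so how near the ratios lie depends on the annotation. The ratio of miR-466c-3p to miR-466p-3p was 2.01, beside 2 copies and 1 in GENCODE M1 and a ratio of copies of 3.0 in RefSeq. The ratio of miR-297a-3p to miR-297c-3p was 1.99, where RefSeq gives 4.0 and GENCODE M1 lists 6 copies and 1. For miR-669c-5p and miR-669o-5p it was 1.42, with a range of 1.29 to 1.6, where both annotations list 1 copy each. The low members miR-466d-5p and miR-466n-5p, had the same count in all 8 mice, 25 in total each. How a read that matches several entries was counted is not given in the sources used here, and whether members of a set share reads was not tested.

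**Figure D1:**
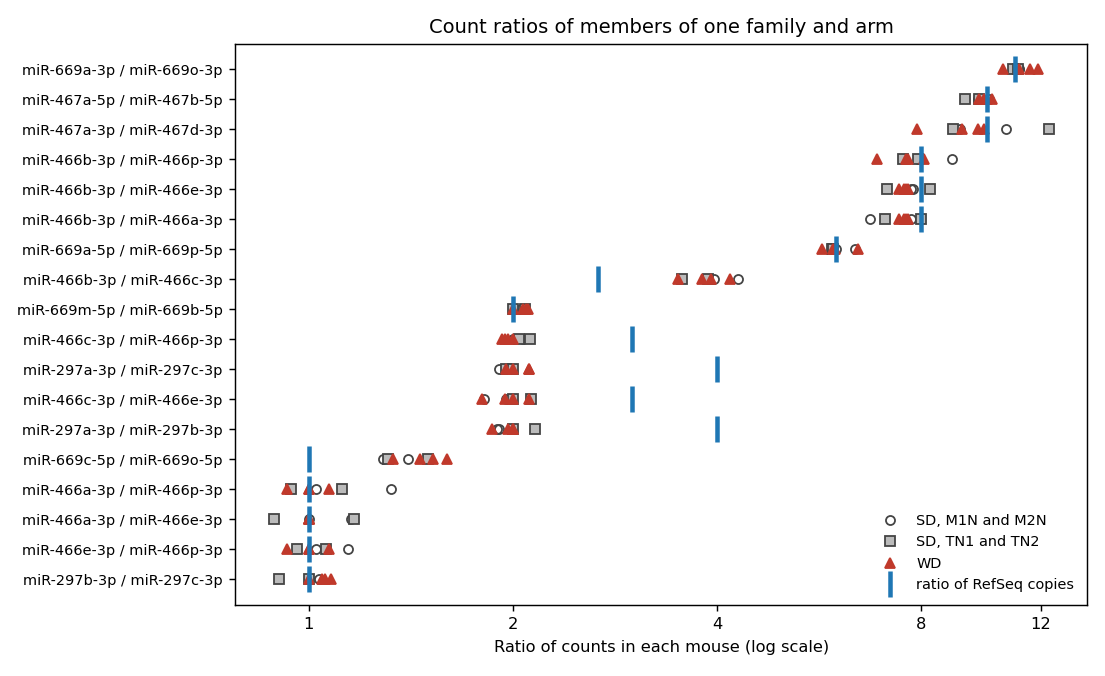
Each row is a pair of members of one family and arm whose count ratio was nearly constant, each symbol is the ratio of counts in 1 mouse (circles, SD mice M1N and M2N; squares, SD mice TN1 and TN2; triangles, WD mice), and the blue bar is the ratio of gene copies in RefSeq, on a log axis. The pair of miR-669a-3p and miR-669o-3p lies between 10.6 and 11.9 in every mouse beside a copy ratio of 11, while the pair of miR-297a-3p and miR-297c-3p lies near 1.99 beside a copy ratio of 4.0.

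The criteria applied to miRNAs in the original work were used here too: an unadjusted p at or below 0.1 and a change of at least 1.5-fold. By these, 4 of the 32 tested members were higher in WD testes with edgeR's quasi-likelihood test, and 5 with DESeq2 and 5 with limma-voom, while 0 were lower with any of them. Of the 418 miRNA entries tested, 7.89% were higher and 7.18% were lower by the same criteria. The 4 members found with edgeR were miR-467e-5p, miR-669d-5p, miR-669e-5p and miR-297c-5p, all 5p arms and none of them part of a set with a constant ratio. After Benjamini-Hochberg adjustment over all small RNAs, 0 members passed an adjusted p of 0.05 with edgeR, DESeq2 or limma-voom, whereas 5 members had an unadjusted p of 0.05 or less in edgeR. Of the 16955 small RNAs tested, 0.0% passed, and 2474 had an unadjusted p of 0.05 or less. The smallest adjusted p among the members was 0.318 over all small RNAs and 0.131 over the miRNA class. The median log2 fold change of the 32 members was 0.04, beside 0.03 over the miRNA entries and -0.01 over all small RNAs tested.

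Of these miRNAs miR-467e-5p was the most abundant. It stood at 29.1 CPM in M1N, 33.8 in M2N, 27.1 in TN1 and 37.1 in TN2, and at 61.1 in M1W, 44.7 in M2W, 36.9 in M3W and 55.4 in M5W. The WD mice were the higher ones apart from M3W, which lay just under TN2. The mean was 31.8 CPM ± 4.51 (SD, n = 4) under SD and 49.5 CPM ± 10.8 (SD, n = 4) in WD testes, a log2 fold change of 0.65 ± 0.20 (SE; edgeR's quasi-likelihood test, unadjusted p = 0.0044, adjusted p = 0.318). The difference was of like size against either pair of SD mice, at 0.66 ± 0.23 (SE) against M1N and M2N and 0.65 ± 0.22 (SE) against TN1 and TN2. Without M1W the log2 fold change was 0.53 and without TN1 it was 0.58, both under 1.5-fold. Its close relative miR-467a-5p was at 81.4 CPM ± 6.86 (SD, n = 4) in SD testes and 96.3 CPM ± 12.8 (SD, n = 4) in WD testes, a log2 fold change of 0.24 ± 0.16 (SE; unadjusted p = 0.141, adjusted p = 0.451). The count ratio of miR-467a-5p to miR-467e-5p ran from 1.65 to 3.35 over the 8 mice, with a chi-square per degree of freedom of 3.93, so these relatives were not tied to each other.

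The level of miR-669e-5p was low, and the diets separated narrowly in CPM. It was 4.46, 5.1, 3.47 and 4.17 CPM in M1N, M2N, TN1 and TN2, and 9.2, 5.7, 8.75 and 5.6 CPM in M1W, M2W, M3W and M5W. In CPM every WD mouse was above every SD mouse, as in 5.5% of the 418 miRNA entries. The raw counts overlapped, at 9 to 16 in SD mice and 13 to 28 in WD mice. The log2 fold change was 0.76 ± 0.30 (SE; edgeR, unadjusted p = 0.0217, adjusted p = 0.32), on 15.9 counts per mouse. It was 0.95 ± 0.39 (SE) against TN1 and TN2 and 0.60 ± 0.38 (SE) against M1N and M2N, where it no longer met the criterion on p.

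For miR-669d-5p and miR-297c-5p the call rested on single mice. The former stood at 3.43, 12.1, 15.1 and 16.2 CPM in M1N, M2N, TN1 and TN2, and at 19.1, 14, 20.3 and 21.8 CPM in M1W, M2W, M3W and M5W, so that M1N lay far below the other SD mice. Its log2 fold change was 0.70 ± 0.33 (SE; edgeR, unadjusted p = 0.0524, adjusted p = 0.346), 1.26 against M1N and M2N, 0.28 against TN1 and TN2, 0.39 without M1N and 0.72 without M2N. It also missed the criteria without M5W, at 0.62. The level of miR-297c-5p was 2.06, 2.55, 4.73 and 5.09 CPM in M1N, M2N, TN1 and TN2, and 5.26, 4.82, 12 and 5.91 CPM in M1W, M2W, M3W and M5W. The WD mouse M3W stood well above the other WD mice, and TN1 and TN2 were close to M2W. Its log2 fold change was 0.94 ± 0.39 (SE; edgeR, unadjusted p = 0.0272, adjusted p = 0.323) on 112 counts over the 8 mice, 1.55 against M1N and M2N, and 0.48 against TN1 and TN2. It met the criteria without M1N (0.75) or M2N (0.81) and missed the criterion on p without M3W (0.59).

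A further 5p arm, miR-466c-5p, fell just short of the fold criterion. It was at 7.2, 5.74, 14.2 and 9.26 CPM in M1N, M2N, TN1 and TN2, and at 12.5, 15.8, 12.9 and 13.7 CPM in M1W, M2W, M3W and M5W. The SD mouse TN1 lay among the WD mice, and M1N and M2N were lowest. The log2 fold change was 0.58 ± 0.27 (SE; edgeR, unadjusted p = 0.0492, adjusted p = 0.341), with 1.08 against M1N and M2N and 0.19 against TN1 and TN2. It met both criteria with DESeq2, at 0.59, and with limma-voom, at 0.66.

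**Figure D2:**
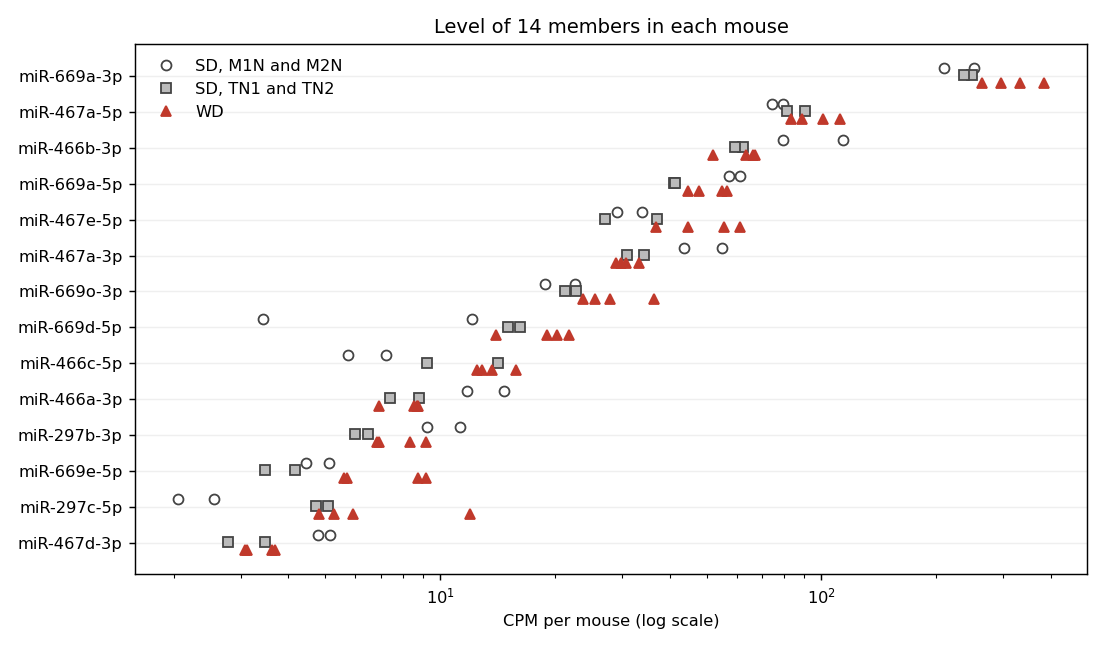
The CPM of the 14 members named by rule is shown in each mouse on a log axis (circles, SD mice M1N and M2N; squares, SD mice TN1 and TN2; triangles, WD mice), ordered by mean CPM. For miR-669a-3p the 4 triangles lie between 264 and 384 CPM, above all SD mice, whereas for miR-466b-3p and miR-467a-3p the triangles lie with TN1 and TN2 and below M1N and M2N.

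The most abundant member, miR-669a-3p, was higher in every WD mouse than in any SD mouse. It stood at 210, 252, 248 and 237 CPM in M1N, M2N, TN1 and TN2, and at 332, 264, 384 and 295 CPM in M1W, M2W, M3W and M5W. The mean was 237 CPM ± 18.9 (SD, n = 4) in SD testes and 319 CPM ± 51.6 (SD, n = 4) in WD testes, a log2 fold change of 0.43 ± 0.16 (SE), or 1.35-fold (edgeR, unadjusted p = 0.0176, adjusted p = 0.318). Its size was similar against M1N and M2N (0.46) and against TN1 and TN2 (0.40). Its set partner miR-669o-3p, at 21.4 CPM ± 1.8 (SD, n = 4) and 28.4 CPM ± 5.62 (SD, n = 4), had a log2 fold change of 0.40 ± 0.19 (SE; edgeR, unadjusted p = 0.0553, adjusted p = 0.349) and kept the ratio to miR-669a-3p given above. With miR-669e-5p these were the 3 tested members whose WD mice all lay above the SD mice, and any such member has an exact permutation p of 0.0286, two-sided, the smallest that 4 against 4 mice can give, so this p restates the choice and adds no support. Among the 418 miRNA entries 5.5% had every WD mouse above every SD mouse. In 0 members did every WD mouse lie below every SD mouse, beside 2.87% of the miRNA entries.

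Summed over all 57 members, the level was 890 CPM in M1N, 853 in M2N, 794 in TN1 and 759 in TN2, and 995 in M1W, 862 in M2W, 957 in M3W and 923 in M5W. The highest SD mouse, M1N, overlapped the lowest WD mouse, M2W. The means were 824 CPM ± 58.6 (SD, n = 4) and 934 CPM ± 56.7 (SD, n = 4), a log2 ratio of 0.18. Without miR-669a-3p the sum was 587 CPM ± 69.9 (SD, n = 4) in SD testes and 615 CPM ± 38.9 (SD, n = 4) in WD testes, a log2 ratio of 0.07. This remainder was 640 CPM ± 55.8 (SD, n = 2) in M1N and M2N, above the WD mean, and 535 CPM ± 17.0 (SD, n = 2) in TN1 and TN2, below it, so its direction depended on the pair. For miR-669a-3p itself the pairs were at 231 CPM ± 29.8 (SD, n = 2) and 242 CPM ± 7.94 (SD, n = 2).

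Fold changes were also counted by arm. Of the 15 tested 5p arms 14 had a log2 fold change above 0, with a median of 0.25, whereas 13 of the 17 tested 3p arms were below 0, with a median of -0.17. Of the other miRNA entries tested, 57.1% of 163 5p arms were above 0, with a median of 0.08, and 48.8% of 164 3p arms were below 0, with a median of 0.02. The difference between the arms was not tested, most of these values did not pass a test singly, and members of a set with a constant ratio are not independent points. The counts also moved with the SD mice used as controls: 10 of 15 5p arms were above 0 against M1N and M2N and 15 of 15 against TN1 and TN2, while 13 of 17 3p arms were below 0 against the former and 4 of 16 against the latter. The summed level of the 5p arms was 275 to 283 CPM in SD mice and 304 to 372 CPM in WD mice, without overlap. No such sum was made for the other 5p entries, so how often sums of this kind separate is not known. The separation was not tested. The summed level of the 3p arms was 482 to 606 CPM in SD mice and 528 to 653 CPM in WD mice and overlapped. The exceptions among the 3p arms were miR-669a-3p, miR-669o-3p, miR-467e-3p (0.06) and miR-669m-3p (0.05), and among the 5p arms miR-669l-5p (-0.15).

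**Figure D3:**
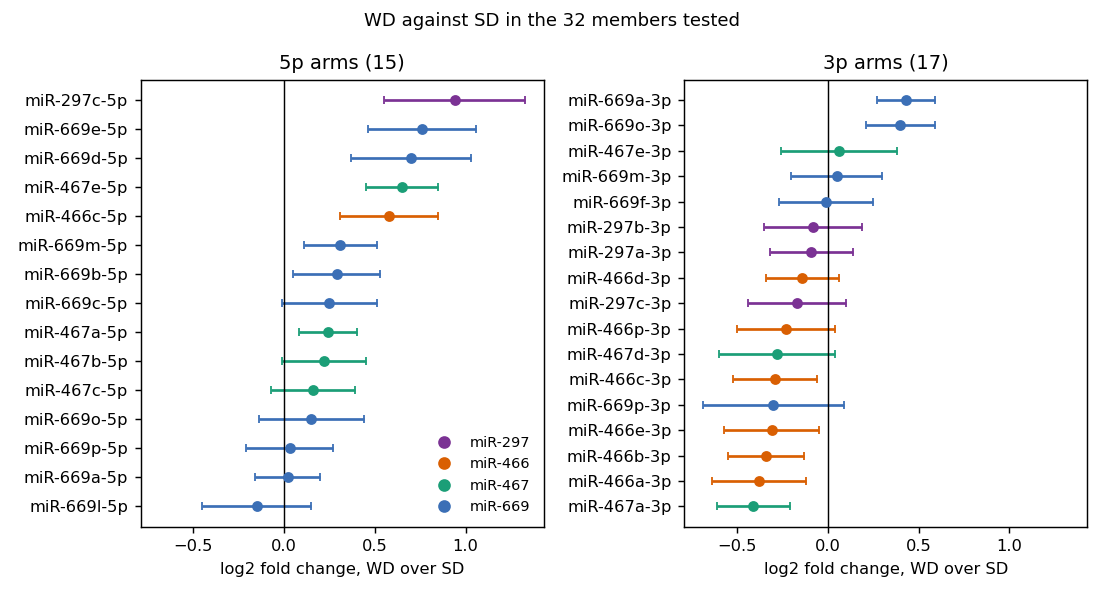
Points are log2 fold changes, WD over SD, of the 32 tested members with their SE, 5p arms on the left and 3p arms on the right, coloured by family. All 5p arms but miR-669l-5p lie above 0, and 13 of 17 3p arms lie below 0, with miR-669a-3p at 0.43 and miR-669o-3p at 0.40 as the highest 3p arms.

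The values by family and arm were as follows. The 5p arms of miR-467 summed to 129 to 138 CPM in SD mice and 149 to 192 CPM in WD mice, and the 4 tested had log2 fold changes of 0.16 to 0.65. The 5p arms of miR-669 summed to 122 CPM ± 11.5 (SD, n = 4) and 140 CPM ± 13.6 (SD, n = 4), with 8 of 9 tested members above 0. Against M1N and M2N 5 of these 9 were above 0 and their median was 0.06, and the sum was 132 CPM ± 1.45 (SD, n = 2) in M1N and M2N, within the 123 to 151 CPM of the WD mice, and 112 CPM ± 2.94 (SD, n = 2) in TN1 and TN2. The 6 tested 3p arms of miR-466 were all below 0, from -0.38 to -0.14, but none met the criteria. Their family sum was 224 CPM in M1N and 165 in M2N, against 132 CPM ± 5.18 (SD, n = 2) in TN1 and TN2 and 117 to 143 CPM in the WD mice, so the WD mice lay with TN1 and TN2. The 3p arms of miR-669 lay the other way, at 268 to 314 CPM in SD mice and 318 to 469 CPM in WD mice, with 3 of 5 tested members above 0, and miR-669a-3p made up most of this sum. The 3p arms of miR-467 summed to 43.1 to 68.9 CPM in SD mice and 39.5 to 47.7 CPM in WD mice, with 1 of 3 tested members above 0. The 5p arms of miR-466, of which miR-466c-5p was tested, summed to 12.4 to 18.9 CPM in SD mice and 17.5 to 21.8 CPM in WD mice. The 3 tested 3p arms of miR-297 had log2 fold changes of -0.17 to -0.08, and their sums ranged from 25.5 to 44.2 CPM in SD mice and from 26.1 to 35.8 CPM in WD mice.

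The direction of the 3p arms depended on which SD mice served as controls. Both M1N and M2N were above both TN1 and TN2 in 12 of the 17 tested 3p arms and in 7 of the 15 tested 5p arms, and both were below in 0 of the 3p arms and in 6 of the 5p arms. Over all 32 members M1N and M2N were above in 19 and below in 6, beside 46.2% and 24.9% of the 418 miRNA entries. The median log2 fold change of the 3p arms was -0.43 against M1N and M2N and 0.06 against TN1 and TN2. That of the 5p arms was 0.33 and 0.29. For all members fitted the medians were -0.11 and 0.19, beside -0.14 and 0.19 for all miRNA entries fitted. Both comparisons use the same 4 WD mice, and the difference between the pairs was not tested.

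Against M1N and M2N alone, 4 members met the criteria as higher, miR-467e-5p, miR-669d-5p, miR-466c-5p and miR-297c-5p, and 3 as lower, miR-466b-3p, miR-466a-3p and miR-467a-3p. Of the 453 miRNA entries fitted there 15.0% were higher and 19.0% were lower. The members with an adjusted p under 0.05 (edgeR) were the same 4 higher ones, with adjusted p of 0.0162 to 0.0453, and miR-466b-3p (0.0271) and miR-467a-3p (0.0229), beside 8.83% of the entries higher and 9.71% lower. Against TN1 and TN2 alone, 2 members met the criteria as higher, miR-467e-5p and miR-669e-5p, and 0 as lower, beside 5.2% and 9.73% of 442 entries. There 0 members had an adjusted p under 0.05, beside 4.07% of the entries.

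Of the 3p arms miR-466b-3p was the most abundant after miR-669a-3p. It was at 114 CPM in M1N and 79.4 in M2N, against 62.4 in TN1 and 59.3 in TN2, and at 63.4, 67.1, 52.1 and 66.3 CPM in M1W, M2W, M3W and M5W. Its log2 fold change was -0.34 ± 0.21 (SE; edgeR, unadjusted p = 0.119, adjusted p = 0.422), with -0.63 against M1N and M2N and 0.03 against TN1 and TN2. The same split of the SD mice was seen for miR-467a-3p, at 54.8 CPM in M1N, 43.7 in M2N, 30.9 in TN1 and 34.3 in TN2, and at 29.0 to 33.2 CPM in the WD mice. Its log2 fold change was -0.41 ± 0.20 (SE; edgeR, unadjusted p = 0.0551, adjusted p = 0.349), -0.68 against M1N and M2N and -0.08 against TN1 and TN2. The 5p arm miR-669a-5p had the same split of the SD mice, at 61.3 and 57.4 CPM in M1N and M2N and 41.0 and 41.2 CPM in TN1 and TN2, with the WD mice between 44.7 and 56.6 CPM. Its log2 fold change was 0.02 ± 0.18 (SE; edgeR, unadjusted p = 0.915, adjusted p = 0.963), with -0.22 against M1N and M2N and 0.31 against TN1 and TN2.

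Among the 32 tested members the log2 ratio of M1N and M2N to TN1 and TN2 was highest for miR-297b-3p (0.72), miR-466a-3p (0.71) and miR-467d-3p (0.67), and lowest for miR-297c-5p (-1.09), miR-669d-5p (-1.01) and miR-466c-5p (-0.86). The log2 fold change of WD over SD was -0.08 for miR-297b-3p, -0.38 for miR-466a-3p and -0.28 for miR-467d-3p, with unadjusted p of 0.764, 0.164 and 0.4 (edgeR; adjusted p = 0.896, 0.475 and 0.676). Of these 6 tested members the 3 with the lowest ratio were 5p arms and the 3 with the highest ratio were 3p arms.

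**Figure D4:**
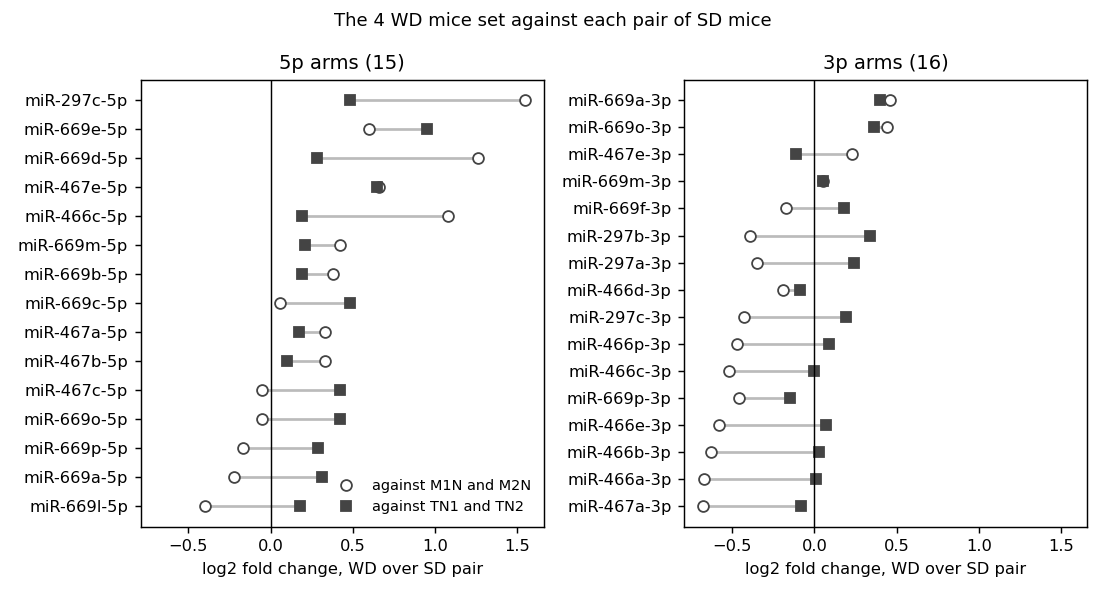
For the 31 members fitted in all comparisons, the log2 fold change of the 4 WD mice is shown against M1N and M2N (open circles) and against TN1 and TN2 (filled squares), 5p arms on the left and 3p arms on the right, with a grey line joining the values of a member. The symbols of miR-467e-5p (0.66 and 0.65) nearly coincide, whereas those of miR-466b-3p lie at -0.63 and 0.03.

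The balance of the arms was followed within each precursor name. For 21 names both arms were listed, and in 9 of them the 5p arm had more counts. Both arms were tested for 8 names, in 3 of which, miR-467a, miR-467e and miR-669m, the 5p arm had more counts. The log2 ratio of 3p to 5p counts of miR-467a was -1.02 ± 0.46 (SD, n = 4) in SD testes and -1.64 ± 0.16 (SD, n = 4) in WD testes. In single mice it was -0.54 in M1N and -0.77 in M2N, against -1.56 in TN1 and -1.24 in TN2, and -1.86 to -1.48 in WD mice, so that TN1 lay within the WD range. For miR-669a, where the 3p arm prevailed, it was 2.26 ± 0.38 (SD, n = 4) and 2.64 ± 0.36 (SD, n = 4). For miR-297c it was 1.28 ± 1.03 (SD, n = 4) and 0.19 ± 0.71 (SD, n = 4). In 0 of the 8 names did the ratios of the diets separate without overlap.

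Summed levels of some markers of other cells separated the pairs of SD mice. The summed level of 4 miRNAs of smooth muscle and stroma was 4500 to 4690 CPM in M1N and M2N, 3350 to 3730 CPM in TN1 and TN2 and 3480 to 6470 CPM in WD mice, and miR-126-3p of endothelium was at 1500 to 1540, 989 to 1080 and 944 to 1790 CPM. The 5 blood miRNAs summed to 339 to 446 CPM in M1N and M2N, less in both TN1 and TN2 (295 CPM in the lower), and 244 to 484 CPM in WD mice, with miR-142-3p meeting the criteria between the diets, as did miR-449a-5p of the 3 germ cell miRNAs. The gonadal miR-202 arms summed to 3610 to 4190 CPM in SD mice, where the pairs overlapped, and to 4190 to 7020 CPM in WD mice, ranges that touch, and 0 of the 2 arms had an unadjusted p of 0.05 or less between the diets with edgeR or met the criteria. The summed level of the germ cell miRNAs overlapped between the pairs and between the diets. No marker was at 0 in any mouse. The part of these cells in the levels of the Sfmbt2 intron miRNAs was not tested.

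Other clusters of miRNA genes were counted by the same criteria, by which 7.89% of the 418 miRNA entries were higher and 7.18% lower. In the imprinted Dlk1-Dio3 cluster 12 of 47 entries were tested, with a median log2 fold change of 0.11, 1 higher and 1 lower. In the X-linked cluster known from spermatogenesis all 31 entries were tested, with a median of 0.22. There 3 were higher and 0 lower, beside 4 and 0 of the 32 tested members. Against M1N and M2N alone 7 of the 31 were higher and 5 lower, beside 15.0% and 19.0% of the miRNA entries. Against TN1 and TN2 alone 0 were higher and 0 lower, beside 5.2% and 9.73%. In the miR-290 to miR-295 cluster, which is known from pluripotent cells, 4 of 11 entries were tested, with a median of -3.26, and 4 were lower. Against M1N and M2N alone 4 entries of this cluster were fitted, with a median of 0.19, 1 higher and 1 lower. Against TN1 and TN2 10 entries were fitted, with a median of -3.51, and 10 were lower. Both fits use the same 4 WD mice, so entries fitted only there passed the filter on low counts through TN1 and TN2. Their lower calls follow from this and add no support. The difference between these clusters and the Sfmbt2 intron families was not tested.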

How the data were processed

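Small RNA was sequenced on a SOLiD instrument from testes of 4 SD and 4 WD mice, grouped by the sample labels. The authors cut reads at the adaptor (at 31 bases where none was found), mapped them with Bowtie to mm9 (2 mismatches allowed), annotated them with miRBase release 18 and other databases, and deposited raw counts per small RNA and mouse. The labels also name DESeq. Program versions, and how multiply matching reads were counted, are not given in the sources used here. The labels' sentence on a high-fat diet covers the controls too and was not used for them.

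WD and SD counts, as deposited, were compared with edgeR 4.0.16 in R 4.3.3 (TMM factors, column totals as library size, filterByExpr with a minimum count of 10 and a minimum total of 15, quasi-likelihood test, two-sided, diet as the only term), fitted over all 20558 small RNAs, of which 16955 passed the filter, and adjusted over those by the Benjamini-Hochberg method. SEs were derived from the F statistic. Exact permutation tests enumerated the 70 ways to divide 8 mice into 4 and 4. P-values reflect the spread between these mice. The procedure was tested on simulated data. Copies and sequences were matched by name to RefSeq (GRCm38.p6), positions to NCBIM37 (the build mm9) with GENCODE M1. Grouping by seed had been planned and was not done.

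Members and lists were chosen with earlier results of these data known. Named members were the 6 with the highest mean CPM, those meeting the criteria, those whose diets did not overlap, and the 3 highest and 3 lowest ratios of M1N and M2N to TN1 and TN2. The pairs of members with constant ratios and the exceptions in direction were named after their values were seen. Alternatives were DESeq2 1.42.0, limma-voom 3.58.1, upper-quartile factors, column totals, the newer quasi-likelihood method, other filters, either SD pair, a replicate block, each mouse left out, other criteria and members with all precursors in Sfmbt2. Figures were drawn with matplotlib 3.10.9.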

Additional observations from a re-analysis of the deposited data

Results flagged for a closer look

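For the 14 named members, their summed level and their share of the miRNA counts, each diet's 4 mice were searched for 1 mouse far from the other 3. In 2 of these 32 groups 1 was found, where chance gives about 1.6 (1 in 20 groups). The level of miR-466a-3p was 6.91 CPM in M3W, against 8.55 to 8.77 CPM in the other WD mice, a gap of 0.88 of the range. The level of miR-297c-5p was 12 CPM in M3W, against 4.82 to 5.91 CPM in the others, a gap of 0.848 of the range.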

How the results depend on the processing

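Of 262 comparisons of the 14 named members with their value in an alternative, 222 kept direction and call, 19 gained the call, 10 lost it and 11 reversed. Against TN1 and TN2 the log2 fold change was 0.03 for miR-466b-3p, 0.01 for miR-466a-3p and 0.34 for miR-297b-3p, and 2 members were called higher. Against M1N and M2N it was -0.22 for miR-669a-5p, 3 members were called lower and 6 passed an adjusted p of 0.05. With a mouse left out, miR-669a-5p ranged from -0.07 to 0.13 and miR-297b-3p from -0.22 to 0.10 (0.10 without M1N), 3 to 5 members were called higher and 0 to 1 lower, the 1 being miR-669p-3p without M3W (-0.78). With no fold criterion 7 members were higher and 1, miR-467a-3p, lower. With the summed level of members other than miR-669a-3p the log2 ratio was 0.07. The cause was not tested.

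The labels do not say whether the numbers in the mouse names pair the mice, which are different animals. Deviations correlated at -0.0761 (M1N with M1W) and 0.237 (M2N with M2W), and at 0.23 (M1N with M2W) and -0.0675 (M2N with M1W) across numbers. These few values cannot settle whether mice of the same number share a batch. With the replicate block on these 4 mice, which leaves 1 residual degree of freedom, 4 members were called higher, 1 lower (miR-467a-3p) and 1 passed an adjusted p of 0.05 (miR-669d-5p, 0.0426). Without the block the same mice gave 4, 1 and 0, and miR-669a-5p was at -0.09 with and without it. The fit without the block and the sum without miR-669a-3p were chosen after seeing the data. The summed level was recomputed with other scalings (0.18 with DESeq2's size factors) but not under limma-voom, the newer quasi-likelihood method, the filters or the block. Members with few counts, such as miR-297c-5p with 112, carry a large counting error.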
